A study of Mus musculus with 6 samples.

Results

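The 7 genes described here, Pter, Pecam1, Copz2, Ffar3, Myb, St6gal1 and 4930447C04Rik, are those with large falls in mouse embryonic stem cells (ESCs) after knockdown of Mbd2, apart from Mbd2 itself. They are 7 of the 13743 entries of the expression table, and all 7 passed the filter on low values, set at 1 RPKM for the mean of all libraries, which left 11428 genes tested (RPKM, reads relative to the length of the transcript and the size of the library). Their lower values with siMbd2 against CTR chose them, so that comparison is given as a description with no test. The other comparison available is with the miR-294 libraries, which the choice did not use.

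The cells were C57/129 ESCs of the Dgcr8-/- genotype in all groups, the controls included. Dgcr8 is needed to process primary microRNAs, so these cells lack canonical microRNAs. The 3 groups of 2 libraries each were CTR (a control transfection whose content the labels do not give, called mock in the deposited table), miR-294 (a microRNA mimic) and siMbd2 (siRNA against Mbd2), with mimics and siRNAs at 50 nM; RNA was taken at 48 h. The labels do not say whether the 2 libraries of a group came from separate cultures or how many siRNAs were used, so the p-values speak only for the scatter among these 6 libraries, which may be technical.

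MBD2 is a reader of DNA methylation: it binds methylated CG dinucleotides and brings the NuRD deacetylase and remodelling complex to the DNA, and it is known mainly as a repressor of methylated promoters. In ESCs the miR-290 cluster, which includes miR-294, supplies the most abundant microRNAs, and the family shortens the G1 phase of the cell cycle. A microRNA lowers its direct targets through matches to its seed, bases 2 to 8, mostly in 3' UTRs. The mature sequence is shown because the matches reported below were sought for its seed, in capitals (RefSeq, GRCm38.p6).
mmu-miR-294-3p: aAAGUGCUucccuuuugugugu

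Mbd2 itself measured 26.76 and 27.86 RPKM in the CTR libraries, 7.33 and 6.34 with siMbd2, and 11.27 and 12.32 with miR-294. The targeted mRNA was thus at 25.0% of its CTR mean with siMbd2 and at 43.2% with miR-294. Its level with miR-294 lay between those of the other groups in every library. Values were compared as log2(RPKM + 1) in limma, with Benjamini-Hochberg adjustment over the 11428 genes and a call at adjusted p under 0.05. On this scale siMbd2 lowered Mbd2 by a difference of -1.86 (adjusted p = 5.05e-05), and the difference for miR-294 was -1.15 (adjusted p = 1.36e-05). The scale understates changes of genes near 1 RPKM, so percentages of mean RPKM are given beside it. RPKM values carry no read counts, so depth and counting error are unknown.

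The libraries summed to between 429460 and 493079 RPKM. All 10 ESC markers examined had values, led by Dppa5a, with a CTR mean of 3810 RPKM, and Pou5f1, with 740 RPKM. With siMbd2, 2 of the 10 fell and 4 rose, against 14.9% and 19.5% of all tested genes. With miR-294, 3 fell and 6 rose, against 36.8% and 27.7%. Sox2 and Nanog, core pluripotency factors, fell with both: with siMbd2 by 0.42 (adjusted p = 0.00213) and 0.33 (adjusted p = 0.00369), and with miR-294 by 0.51 (adjusted p = 1.76e-04) and 0.80 (adjusted p = 1.09e-05). Pou5f1, Utf1, Esrrb and Dppa5a rose with siMbd2 by 0.26 to 0.36 (adjusted p = 0.00933 to 0.0327). With miR-294, Utf1 rose by 0.77 (adjusted p = 3.24e-04) and Sall4 by 0.75 (adjusted p = 1.35e-05), while Dppa5a fell by 0.36 (adjusted p = 0.00256). None of the 4 rises with siMbd2 was called without either siMbd2 library, those of Pou5f1 and Esrrb were not called under quantile normalization, and those of Utf1 and Dppa5a were not called without either miR-294 library or in a fit of only the groups compared. The Utf1 rise was also not called without an intensity trend, nor the Nanog fall with siMbd2 without siMbd2 replicate 2. The part of these shifts in the values of the 7 genes was not tested. The CTR libraries differed more from each other than those of the other groups, with a median absolute log2 difference between libraries of 0.136 against 0.0626 for miR-294 and 0.0602 for siMbd2. In bulk RNA, fewer cells expressing a gene and less RNA per cell cannot be told apart.

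Lower with siMbd2 by choice, the 7 genes parted with miR-294. Of the 7, 6 fell with miR-294 against CTR and 4930447C04Rik was not called. Over all tested genes 36.8% were called lower and 27.7% higher in that comparison. Both miR-294 libraries lay below both CTR libraries for these 6, as they did for 46% of all tested genes. Against siMbd2 directly, miR-294 libraries were lower for Copz2, Ffar3 and Myb, higher for 4930447C04Rik, and not called different for Pter, Pecam1 and St6gal1. Among all genes 35.5% were called lower and 21.9% higher there, and the libraries did not overlap with miR-294 below for 49.6% and above for 34.5%. Both comparisons reuse libraries on which the genes were chosen, CTR in one and siMbd2 in the other, so neither is fully independent of the choice, and the changes of any gene with siMbd2 and with miR-294 share the CTR libraries. In siMbd2 against CTR, 14.9% of tested genes were called lower and 19.5% higher, and 30.6% had both siMbd2 libraries below both CTR libraries, as all 7 have. From these shares nothing is read about the 7, which were chosen there.

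**Figure D1:**
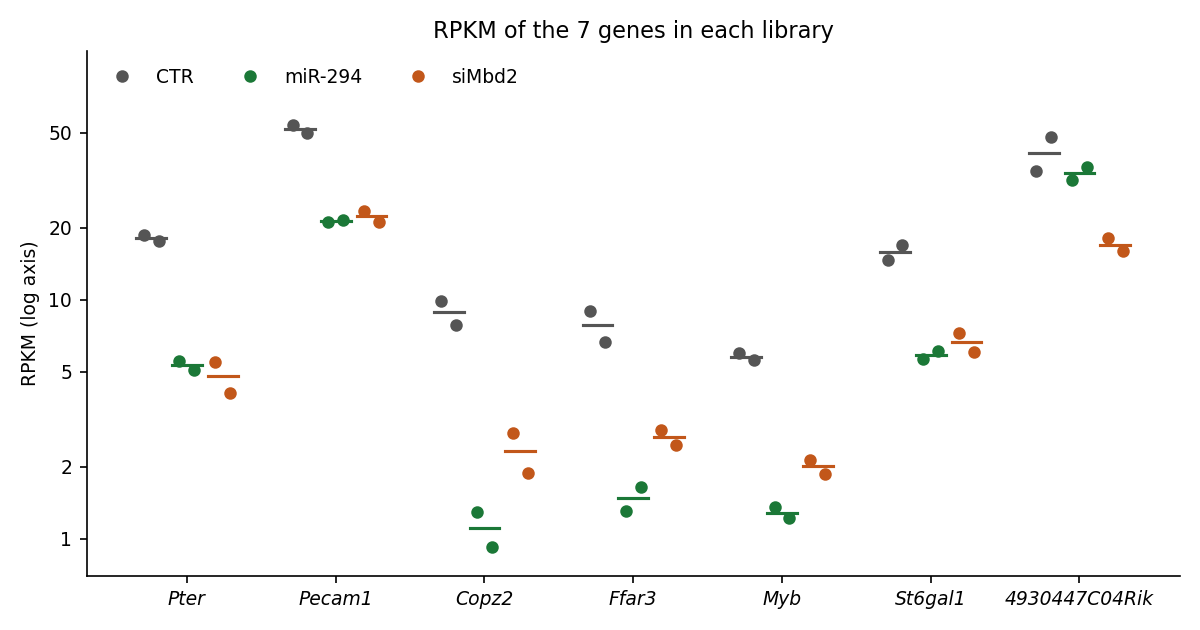
RPKM (log axis) of the 7 genes, with 1 point per library and a bar at the mean of the 2 libraries of each group. Both siMbd2 libraries lie below both CTR libraries for every gene, and both miR-294 libraries do so for 6 genes, while for 4930447C04Rik the CTR and miR-294 points overlap.

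**Figure D2:**
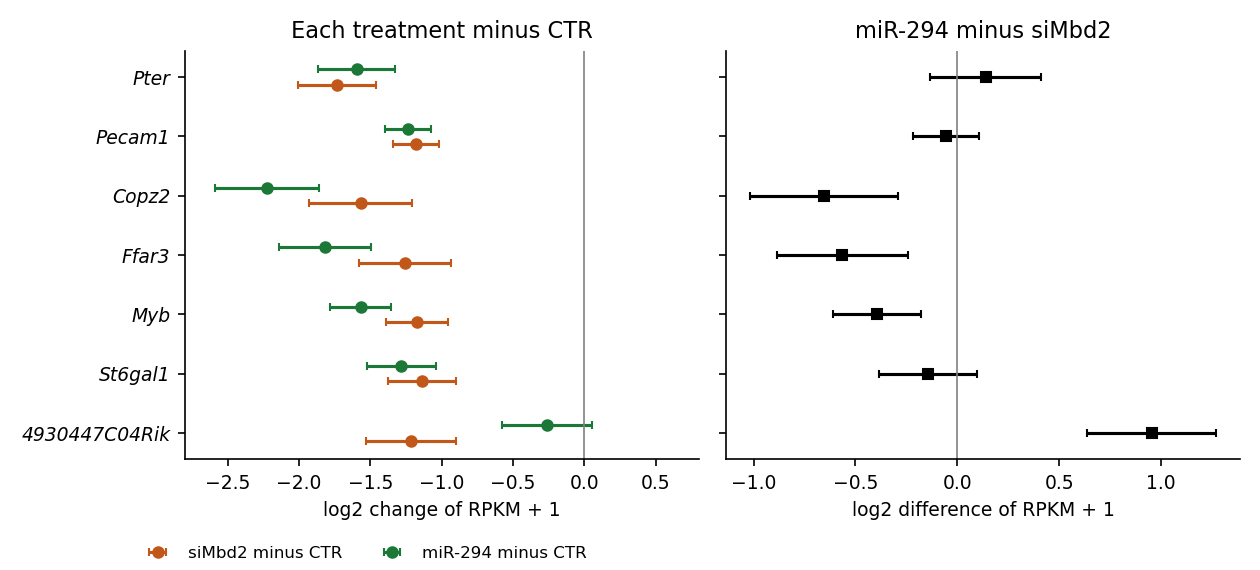
Log2 change of RPKM + 1 for the 7 genes, with points for the fitted difference of group means and bars for the 95% interval from limma. The left panel shows each treatment minus CTR (the siMbd2 points chose the genes) and the right panel miR-294 minus siMbd2, where 3 intervals lie below 0, 1 above it and 3 include it.

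Pter and St6gal1 encode enzymes. Pter, a phosphotriesterase-related hydrolase of N-acetyltaurine, lies at chr2:12924041-13003455 on the plus strand (GRCm38, the same assembly as mm10). It measured 18.61 and 17.57 RPKM in CTR, 5.47 and 4.07 with siMbd2 and 5.56 and 5.06 with miR-294. Both treatments left it far below CTR, and their libraries overlapped each other. Its siMbd2 mean of 4.77 ± 0.990 RPKM (SD, n = 2) was 26.4% of CTR and its miR-294 mean of 5.31 ± 0.354 (SD, n = 2) 29.4%. On the log2 scale the siMbd2 libraries were lower by -1.74, the lowest value of the 7. With miR-294 Pter fell by 1.60 (SE 0.119, limma adjusted p = 1.27e-05). The difference between miR-294 and siMbd2 was 0.14, with a 95% interval from -0.13 to 0.41 (adjusted p = 0.345). Under quantile normalization that difference was called (0.34, adjusted p = 0.0278), and without siMbd2 replicate 2 it was -0.04.

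St6gal1 adds sialic acid in alpha-2,6 linkage to N-glycans and lies at chr16:23224740-23360350, plus strand. Its CTR libraries measured 14.67 and 16.85 RPKM, its siMbd2 libraries 7.22 and 6.02 and its miR-294 libraries 5.65 and 6.10. The treated libraries again lay together and apart from CTR, at 42.0% of the CTR mean with siMbd2 and 37.3% with miR-294. The siMbd2 difference was -1.14 on the log2 scale. With miR-294 St6gal1 fell by 1.28 (SE 0.105, adjusted p = 1.94e-05). Between the treatments the difference was -0.14 (interval -0.39 to 0.10, adjusted p = 0.269), with the opposite sign under quantile normalization. BC106179 overlaps 745 bases of the gene on the other strand and was at 0.17 to 0.51 RPKM in the 6 libraries. The sources used here do not give whether strand was used in counting.

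Pecam1 (CD31) encodes an immunoglobulin-family adhesion molecule of endothelium, platelets and leukocytes that is also found on the surface of undifferentiated mouse ESCs. It lies at chr11:106654217-106750628 on the minus strand. With 53.57 and 49.97 RPKM in CTR it was the highest of the 7 there, and it measured 23.43 and 21.14 with siMbd2 and 21.15 and 21.60 with miR-294. All 4 treated libraries lay between 21.14 and 23.43, far below both CTR libraries. The siMbd2 mean was 43.0% of CTR and the miR-294 mean 41.3%. The siMbd2 difference was -1.18 on the log2 scale, and with miR-294 Pecam1 fell by 1.24 (SE 0.0717, adjusted p = 4.28e-06). The treatments differed by -0.06 (interval -0.22 to 0.11, adjusted p = 0.528), the narrowest interval of the 7, and the sign turned under both other scalings and without siMbd2 replicate 1.

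Pecam1 was the only one of the 7 with a match of 7 or 8 bases to the miR-294 seed in its longest annotated 3' UTR, and Myb held a match to the 6-base core alone. The matches sought, on the mRNA strand only, were AGCACTTA (8 bases), AGCACTT and GCACTTA (7 bases, both contained in the first), and the core GCACTT, contained in all of them. Mbd2 also held the 8-base match. Both sites of the 7 genes are printed, with the match in capitals. That of Pecam1 lies at position 596 of a 3' UTR of 926 bases, at chr11:106654540-106654547, read 5' to 3' on the mRNA strand from GRCm38.
That of Myb lies at position 938 of 1238 bases, at chr10:21125230-21125235.
Pecam1 site: atggcaactggagcgAGCACTTAa
Myb site: gatttataaaagcattGCACTTct
Of 10806 tested genes with a 3' UTR, 3.69% held the 8-base match, 20.9% any match of 7 or 8 bases and 12.4% the core alone. With miR-294 the median log2 change of genes holding the 8-base match was -0.37, against -0.15 for those with the core alone and -0.03 for all without a match of 7 or 8 bases. Copz2, Ffar3, Pter and St6gal1, with none of these matches in 3' UTRs of 293 to 2480 bases, fell by 1.28 to 2.23, against 1.57 for Myb and 1.24 for Pecam1. 4930447C04Rik, also with none of them in a 3' UTR of 1569 bases, was not called with miR-294 (-0.26). Whether either match is used was not measured.

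Copz2, Ffar3 and Myb were lowered further by miR-294 than by siMbd2. Copz2 encodes the zeta-2 subunit of the COPI coat, which covers vesicles travelling within the Golgi and back to the endoplasmic reticulum. It lies at chr11:96849870-96861203, plus strand, with the hairpin of Mir152 inside it on the same strand. It measured 9.90 and 7.83 RPKM in CTR, 2.78 and 1.89 with siMbd2, and 1.29 and 0.92 with miR-294. The groups did not overlap and were ordered CTR, siMbd2, miR-294. The siMbd2 mean was 26.3% of CTR and the miR-294 mean 12.5%, the lowest share of any of the 7 genes. On the log2 scale the siMbd2 difference was -1.57, and Copz2 fell by 2.23 with miR-294 (SE 0.159, adjusted p = 1.06e-05). The miR-294 libraries were lower than siMbd2 by -0.66 (interval -1.02 to -0.29, adjusted p = 0.00749). That call was lost without miR-294 replicate 2 (-0.53, adjusted p = 0.0571) and without siMbd2 replicate 1 (-0.46, adjusted p = 0.0620).

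Ffar3 (GPR41), a G protein-coupled receptor for short-chain fatty acids, lies at chr7:30854330-30856178, minus strand. Its CTR libraries measured 8.97 and 6.62 RPKM, those with siMbd2 2.85 and 2.46 and those with miR-294 1.30 and 1.65. The order of the groups was that of Copz2, without overlap, at 34.1% of the CTR mean with siMbd2 and 18.9% with miR-294. The siMbd2 difference was -1.26, and with miR-294 Ffar3 fell by 1.82 (SE 0.140, adjusted p = 1.45e-05). The difference between the treatments was -0.56 (interval -0.89 to -0.24, adjusted p = 0.00857). It was not called without miR-294 replicate 1 (-0.46, adjusted p = 0.0644) or without siMbd2 replicate 1 (-0.49, adjusted p = 0.0628).

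Myb encodes c-Myb, a transcription factor of blood progenitors and other dividing cells. It lies at chr10:21124935-21160984, minus strand, and Gm26577 is annotated antisense to it. With 5.98 and 5.58 RPKM in CTR it was the lowest of the 7 there. It measured 2.14 and 1.87 with siMbd2 and 1.35 and 1.22 with miR-294. Again no libraries overlapped, and the siMbd2 and miR-294 means were 34.7% and 22.2% of CTR. The siMbd2 difference was -1.17 on the log2 scale, and Myb fell by 1.57 with miR-294 (SE 0.0942, adjusted p = 4.92e-06). The treatments differed by -0.39 (interval -0.61 to -0.18, adjusted p = 0.00708). The call was lost without miR-294 replicate 2 (-0.35, adjusted p = 0.0581) and without siMbd2 replicate 1 (-0.33, adjusted p = 0.0655).

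4930447C04Rik, also named Six6os1, encodes a protein of the central element of the synaptonemal complex, which joins homologous chromosomes in meiosis. It lies at chr12:72881109-72940774, minus strand, and shares 883 bases with Six6 on the other strand. Its CTR libraries were far apart, at 34.65 and 47.79 RPKM, and the miR-294 libraries measured 31.62 and 36.01. With siMbd2 it measured 18.03 and 15.93. Only the siMbd2 libraries stood apart, at 41.2% of the CTR mean, while miR-294 left 82.0%. The siMbd2 difference was -1.22. With miR-294 the change was -0.26 (SE 0.139, interval -0.58 to 0.05, adjusted p = 0.127). The value depended on the CTR library used: without CTR replicate 1 it was -0.49 and called (adjusted p = 0.00306), and without CTR replicate 2 it was -0.0371 (adjusted p = 0.748). Directly compared, the miR-294 libraries were higher than siMbd2 by 0.95 (interval 0.64 to 1.27, adjusted p = 5.51e-04), or 199% of the siMbd2 mean. It was the only one of the 7 to be higher with miR-294 than with siMbd2 by a called difference.

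The promoters are shown because MBD2 binds methylated CG, and because the genes that moved together differ widely in CG content. Methylation and MBD2 binding were not measured here. RefSeq entries (GRCm38.p6, 250 bases before to 50 after the start) were found for 6 of the 7 genes, all but Pecam1. The 4 printed, with CG in capitals, run from the fewest to the most CG among the 6 genes.
Ffar3 promoter, chr7:30856129-30856428, minus strand: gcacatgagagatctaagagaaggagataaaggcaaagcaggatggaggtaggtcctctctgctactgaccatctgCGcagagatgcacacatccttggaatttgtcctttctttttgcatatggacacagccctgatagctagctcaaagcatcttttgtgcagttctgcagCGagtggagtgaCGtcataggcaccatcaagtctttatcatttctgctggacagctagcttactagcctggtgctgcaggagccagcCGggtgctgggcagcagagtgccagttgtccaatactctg
Pter promoter, chr2:12923791-12924090, plus strand: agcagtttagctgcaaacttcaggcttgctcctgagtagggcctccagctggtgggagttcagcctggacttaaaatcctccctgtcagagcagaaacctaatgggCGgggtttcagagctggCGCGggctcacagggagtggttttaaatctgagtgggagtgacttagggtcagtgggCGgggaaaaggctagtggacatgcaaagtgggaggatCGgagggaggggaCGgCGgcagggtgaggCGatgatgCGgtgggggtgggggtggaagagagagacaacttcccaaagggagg
Copz2 promoter, chr11:96849626-96849925, plus strand: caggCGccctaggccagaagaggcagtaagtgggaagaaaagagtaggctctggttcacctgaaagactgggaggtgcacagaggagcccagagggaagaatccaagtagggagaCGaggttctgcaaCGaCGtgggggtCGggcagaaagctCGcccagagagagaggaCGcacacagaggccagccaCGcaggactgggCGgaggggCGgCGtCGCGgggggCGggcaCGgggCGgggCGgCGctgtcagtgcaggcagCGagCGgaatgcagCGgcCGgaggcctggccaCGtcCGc
Myb promoter, chr10:21160935-21161234, minus strand: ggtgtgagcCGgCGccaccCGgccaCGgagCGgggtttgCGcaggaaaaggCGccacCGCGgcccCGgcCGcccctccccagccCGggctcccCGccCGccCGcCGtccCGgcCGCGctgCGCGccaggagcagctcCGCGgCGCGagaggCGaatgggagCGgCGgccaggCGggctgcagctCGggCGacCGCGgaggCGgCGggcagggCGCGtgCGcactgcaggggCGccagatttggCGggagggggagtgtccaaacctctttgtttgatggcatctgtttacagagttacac
Ffar3 had 4 CG, Pter 9, Copz2 24 and Myb 40 in the 300 bases. Among 11111 promoters of tested genes the median was 21 CG, with quartiles at 13 and 29. As few CG as in Ffar3, or fewer, were found in 7.88% of them, and as many as in Myb, or more, in 7.65%. The 3 St6gal1 promoters had 7, 10 and 6 CG, and that of 4930447C04Rik had 19. The 4930447C04Rik window, chr12:72917716-72918015, lies inside the span given above for the gene and not at its 5' end. The 7 thus include promoters poor in CG and 1 rich in it.

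**Figure D3:**
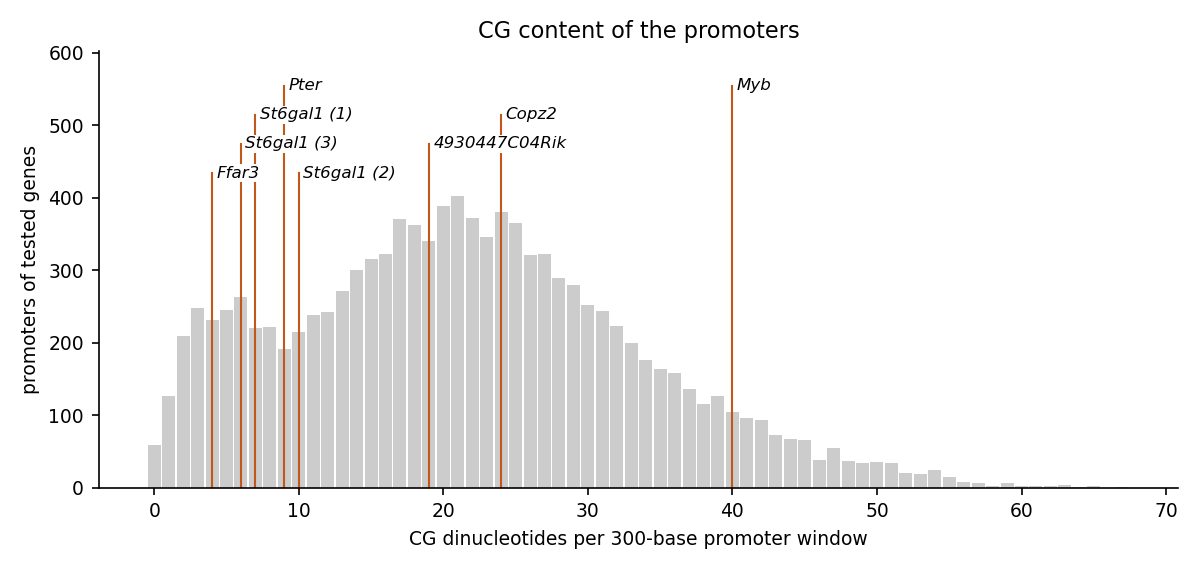
Number of CG dinucleotides per 300-base promoter (horizontal axis) in the promoters of tested genes (grey bars, number of promoters), with lines at the promoters of 6 of the genes; numbers in brackets tell the St6gal1 promoters apart. Ffar3 (4 CG) and Myb (40 CG) lie towards opposite ends.

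On either strand, 3 motifs were counted in these promoters. The GC box GGGCGG, found in 64.6% of all promoters, was present 5 times in Copz2, 3 times in Myb, 2 times in Pter, once each in 4930447C04Rik and the first St6gal1 promoter, and not in Ffar3. The E-box CACGTG (10.2% of promoters) was found once, in 4930447C04Rik. The cAMP response element TGACGTCA (3.22%) was found once, in Ffar3, where it overlaps the third CG of the sequence above. These are matches of letters and not measured sites.

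The paralogs of Copz2 and Myb were not called lower with siMbd2. Copz1, the other zeta subunit of COPI, measured 48.49 and 45.90 RPKM in CTR and 50.50 and 48.36 with siMbd2. It did not pass the test with siMbd2 (0.07, adjusted p = 0.413, with the opposite sign under quantile normalization) and rose by 0.73 with miR-294, to 78.40 and 79.79 RPKM (adjusted p = 1.63e-05). Copz2 made up 17.0% and 14.6% of the summed RPKM of the pair in CTR, 5.22% and 3.76% with siMbd2 and 1.62% and 1.14% with miR-294. Copg2, the gamma-2 subunit, fell by 0.69 with siMbd2 (adjusted p = 0.00177) and with miR-294 by 0.91 (adjusted p = 8.67e-05), from 35.9 ± 3.70 to 21.8 ± 2.25 and 18.6 ± 1.58 RPKM (SD, n = 2). It shares exons with Mest on the other strand, so its reads may not be its own. Of 13 other coat and Arf1-cycle genes, 1 was called lower and 3 higher with siMbd2 (median 0.06, against 0.02 over all tested genes), and 3 lower and 3 higher with miR-294 (median -0.06, against -0.08 over all). The shares called over all tested genes were 14.9% lower and 19.5% higher with siMbd2, and 36.8% and 27.7% with miR-294. Arfgap3, which activates GTP hydrolysis by Arf1, fell by 0.91 with miR-294 (adjusted p = 5.69e-05).

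Mybl1, the germ cell paralog of Myb, measured 11.41 and 13.45 RPKM in CTR, 11.06 and 10.43 with siMbd2 and 4.78 and 4.40 with miR-294. It was not called with siMbd2 (-0.19, adjusted p = 0.158; called without CTR replicate 1, -0.30, adjusted p = 0.0228) and fell by 1.26 with miR-294 (adjusted p = 1.37e-05). Mybl2, the cell cycle paralog, was by far the most abundant, at 133.9 ± 12.4 RPKM in CTR (SD, n = 2). It rose by 0.35 with siMbd2 (adjusted p = 0.00648, not called without siMbd2 replicate 2) and with miR-294 by 0.73 (adjusted p = 3.95e-05). Myb was 3.74% and 3.87% of the summed RPKM of the 3 genes in CTR, 1.18% and 1.02% with siMbd2 and 0.584% and 0.545% with miR-294. Kit, a receptor tyrosine kinase described as a MYB target, fell from 18.36 and 17.33 RPKM to 8.42 and 9.17 with siMbd2 (-0.94, adjusted p = 2.95e-04) and to 9.79 and 8.97 with miR-294 (-0.86, adjusted p = 4.03e-05). Ccnb1, a mitotic cyclin also described as a target, rose by 0.92 with miR-294 (adjusted p = 3.76e-06). It also rose with siMbd2, by 0.23 (adjusted p = 0.0116), a change not recomputed under the alternatives. Over the 6 other tested genes of this list, Mybl1 and Mybl2 included, 1 was lower and 2 higher with siMbd2 (median 0.00). Of all tested genes 14.9% and 19.5% were. With miR-294, 2 were lower and 3 higher (median 0.15), against 36.8% and 27.7%. The described targets Bcl2 and Cxcr4 were below the filter and not tested (named after their values were seen). Their means were 0.780 and 0.745 RPKM in CTR, 0.425 and 0.370 with siMbd2, and 0.220 and 0.230 with miR-294.

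**Figure D4:**
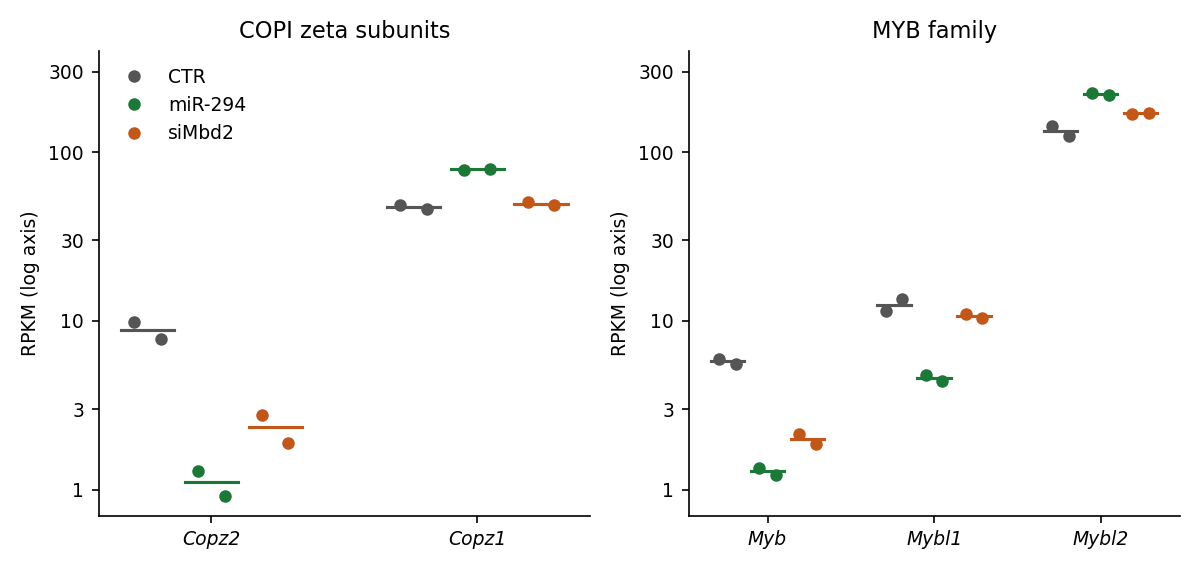
RPKM (log axis) of Copz2 beside Copz1 and of Myb beside Mybl1 and Mybl2, with 1 point per library and a bar at the group mean. Copz2 and Myb are low in both treatments, Copz1 and Mybl2 are highest with miR-294, and Mybl1 is low with miR-294.

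Among 10 other sialyltransferases tested, 2 were lower and 1 higher with siMbd2 (median -0.09), against 14.9% and 19.5% of all tested genes. With miR-294, 6 were lower and none higher (median -0.55), against 36.8% and 27.7%. St8sia5, an alpha-2,8-sialyltransferase of gangliosides counted lower in both, measured 1.66 and 1.85 RPKM in CTR, 0.85 and 0.91 with siMbd2 and 0.84 and 0.71 with miR-294. It passed the filter on low values only through CTR, where it is high, so its calls are given no weight. St3gal5, which makes the ganglioside GM3, fell by 0.39 with siMbd2 (adjusted p = 0.0116) and with miR-294 by 1.01 (adjusted p = 2.87e-05). The siMbd2 call was lost without either siMbd2 library. St6galnac2, which adds sialic acid to O-glycans, rose by 0.31 with siMbd2 (adjusted p = 0.0268) and fell by 0.95 with miR-294 (adjusted p = 3.29e-05), and the rise was not called when any library other than CTR replicate 1 was left out. It shares exons with a transcript on the other strand. Among 7 genes of sialic acid supply and removal, none was lower and 2 were higher with siMbd2, and 3 were lower and 2 higher with miR-294. B4galt1, which adds the galactose that St6gal1 caps, fell by 1.01 with miR-294 (adjusted p = 1.27e-05). St6gal2, the closest paralog of St6gal1, was not analysed here.

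In taurine metabolism, to which Pter is linked, 1 of 5 other genes was lower with siMbd2, against 14.9% of all tested genes. With miR-294, 2 were lower and 2 higher, against 36.8% and 27.7%. The gene lower in both was Cdo1, cysteine dioxygenase, which makes the precursor of taurine. It measured 16.31 and 15.14 RPKM in CTR, 9.23 and 8.19 with siMbd2 and 6.54 and 6.78 with miR-294, without overlap (-0.79, adjusted p = 6.49e-04, and -1.13, adjusted p = 1.37e-05). Ggt1, a gamma-glutamyltransferase, rose by 1.53 with miR-294 (adjusted p = 4.74e-06). Of 5 partners and relatives of Ffar3, Arrb1, which encodes beta-arrestin 1, was the gene lower with siMbd2 (-0.51, adjusted p = 0.00683, not called without siMbd2 replicate 2), at means of 1.66 and 0.860 RPKM. Gnai2, an inhibitory G protein subunit, fell by 0.44 with miR-294 (adjusted p = 7.74e-04). Ffar1 and Ffar2 were not analysed here.

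The meiotic partners of 4930447C04Rik moved both ways. Of 11 other genes of the synaptonemal complex and meiotic axis, 2 were lower and 2 higher with siMbd2 (median -0.02). Of all tested genes 14.9% and 19.5% were. With miR-294, 4 were lower and 6 higher (median 0.33), against 36.8% and 27.7%. Smc1b, a meiotic cohesin subunit, fell by 0.69 with siMbd2 (adjusted p = 0.00138) and with miR-294 by 1.03 (adjusted p = 3.09e-05). Syce2, another central element protein, rose in both, from 35.67 and 32.06 RPKM to 48.50 and 45.54 with siMbd2 (0.46, adjusted p = 0.00201) and to 51.74 and 52.08 with miR-294 (0.60, adjusted p = 1.06e-04). Syce1, also of the central element, rose by 0.24 with siMbd2 (adjusted p = 0.0452), a call lost under several alternatives, among them without CTR replicate 1 and without any 1 of the treated libraries. Hormad1, an axis protein, fell by 1.31 with miR-294 (adjusted p = 3.55e-05). Hormad2, its paralog, measured 0.90 and 0.56 RPKM in CTR, 0.84 and 0.44 with siMbd2 and 2.58 and 2.67 with miR-294. It passed the filter only through miR-294, so no test is given for it. It is nevertheless among the 6 counted higher with miR-294 and in the median of 0.33, where its call is given no weight.

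Around Pecam1, 2 of 10 adhesion partners and relatives were lower and 2 higher with siMbd2 (median 0.04), against 14.9% and 19.5% of all tested genes. With miR-294, 6 were lower and 3 higher (median -0.69), against 36.8% and 27.7%. The integrin subunits Itgb3 and Itgav, whose dimer is described as a PECAM1 partner, fell together. Itgb3 measured 4.59 and 3.64 RPKM in CTR, 1.99 and 1.84 with siMbd2 (-0.81, adjusted p = 0.00138) and 0.95 and 0.94 with miR-294 (-1.39, adjusted p = 1.53e-05). Itgav fell by 0.38 with siMbd2 (adjusted p = 0.00513, not called without siMbd2 replicate 2) and with miR-294 by 1.57 (adjusted p = 2.03e-06). Esam, an endothelial adhesion molecule, rose by 0.74 with siMbd2 (adjusted p = 0.00241), and Jup, plakoglobin, fell by 1.10 with miR-294 (adjusted p = 1.08e-05).

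Because Pecam1 also marks endothelium, markers of endothelial cells were examined. Of 10 endothelial markers, Cdh5 and Emcn have no entry in the table used here, and Kdr, Tie1, Cldn5 and Cd34 were below the filter. Of the 4 tested, 2 fell with siMbd2 and 3 with miR-294, and none rose. Over all tested genes 14.9% were called lower with siMbd2 and 36.8% with miR-294, and 19.5% and 27.7% higher. Below the filter, Cd34 went from a CTR mean of 0.170 to 0.960 RPKM with miR-294, Tie1 from 0.460 to 0.965 and Cldn5 from 0.400 to 1.14. Kdr went the other way, from 0.560 to 0.450 RPKM. These genes were named after their values were seen, and none of them was tested. Egfl7 was called in neither comparison. Tek, the angiopoietin receptor, fell by 0.77 with siMbd2 (adjusted p = 0.00176) and with miR-294 by 0.66 (adjusted p = 9.19e-04). Vwf, von Willebrand factor, fell by 0.62 with siMbd2 (adjusted p = 0.00677, not called without siMbd2 replicate 2) and with miR-294 by 1.47 (adjusted p = 2.22e-05). The 8 markers with values summed to 49.3 and 39.1 RPKM in CTR, 40.9 and 36.6 with siMbd2 and 35.8 and 36.9 with miR-294. Pecam1 alone was above this sum in each CTR library and below it in each treated library. Its lower values with siMbd2 are those on which it was chosen, so nothing is read from that part. Of 10 blood cell markers, 2 were tested. With siMbd2 none of them was called, and with miR-294 1 was called lower and none higher. The part of other cells in the Pecam1 values was not tested.

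Along the chromosomes, most genes around the 7 were not called with siMbd2. For each of the 7 genes the 2 nearest tested genes on each side were taken, 28 neighbours in all, which the choice did not use. With siMbd2, 6 of them fell (21.4%, against 14.9% of all tested genes) and 1 rose (3.57%, against 19.5%), with a median of -0.07. The count of falls was 2 without siMbd2 replicate 2, when 4.91% of all tested genes were called lower, and between 4 and 8 without any other library. The largest fall was of Dhrs7, a short-chain dehydrogenase 216.2 kb from 4930447C04Rik, from 22.0 ± 0.955 to 13.3 ± 0.785 RPKM (SD, n = 2; -0.68, adjusted p = 8.84e-04). Ppm1a, a phosphatase between them, rose by 0.35 (adjusted p = 0.00315). Beside St6gal1, Eif4a2, an RNA helicase of translation, fell by 0.50 (adjusted p = 9.04e-04) and Rfc4, a clamp loader subunit, by 0.30 (adjusted p = 0.0163); they share exons on opposite strands. Ahi1, a cilium gene 44.5 kb from Myb, fell by 0.45 (adjusted p = 0.00628) and Tex2, 40.8 kb from Pecam1, by 0.34 (adjusted p = 0.0177). Cdk5rap3, beside Copz2, fell by 0.22 (adjusted p = 0.0337). Of these, Ahi1, Tex2, Rfc4 and Cdk5rap3 were not called without siMbd2 replicate 2, nor Tex2 and Cdk5rap3 without siMbd2 replicate 1, nor Cdk5rap3 without either miR-294 library, without an intensity trend or in a fit of only the groups compared. With siMbd2 no neighbour of Pter or Ffar3 was called. Gaps between the 7 genes and their neighbours ran from 9.2 kb (Ffar3 to Cd22) to 1319.9 kb (Pter to Rbm17). A nearest tested gene is thus not always close by. With miR-294, 11 neighbours were lower (39.3%, against 36.8% of all tested genes) and 6 higher (21.4%, against 27.7%). Cd22, beside Ffar3, is among the 6, at means of 0.950 RPKM in CTR, 0.805 with siMbd2 and 2.045 with miR-294. It passed the filter only through miR-294, so its call is given no weight.

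**Figure D5:**
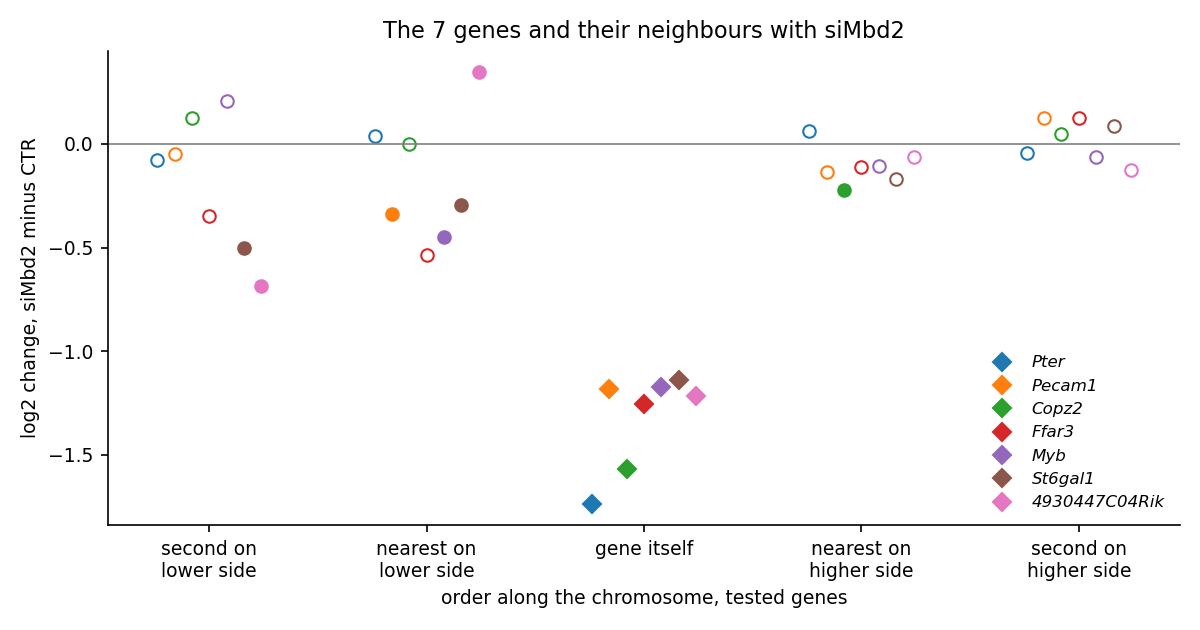
Log2 change of RPKM + 1, siMbd2 minus CTR, for the 7 genes (diamonds, chosen on this value) and their 2 nearest tested genes on each side (circles, filled where called at adjusted p under 0.05), ordered along the chromosome and coloured by the gene they neighbour. The diamonds lie between -1.74 and -1.14 and no circle lies below -0.68.

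Among the 8541 tested genes with a CTR mean of at least 5 RPKM, the 7 took ranks 4 to 9 and 11 in the log2 difference of siMbd2 from CTR. Mbd2 had rank 3. Not among the 7 were rank 1, Gm10351, listed at 0 in all 4 treated libraries, rank 2, Gm21028, whose siMbd2 libraries disagree (19.32 and 0 RPKM), and rank 10, Aldh1b1 (-1.17). Just inside lay St6gal1 (-1.14), and just outside Lefty1 (-1.13), Acss1 (-1.13) and Peg3 (-1.10). With miR-294 these 3 outsiders also fell, Lefty1, a Nodal inhibitor, by 1.97 (adjusted p = 8.68e-06), Acss1, a mitochondrial acetyl-CoA synthetase, by 1.21 (adjusted p = 5.28e-05) and Peg3, an imprinted zinc finger gene, by 1.06 (adjusted p = 1.07e-05).

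The genes whose profiles over the 6 libraries lay nearest to each of the 7 were found among 8373 others whose mean over the libraries reached 5 RPKM. The measure is the Euclidean distance between log2(RPKM + 1) values centred on each gene's mean. It includes the CTR and siMbd2 libraries on which the 7 were chosen. Nearness to other genes with large siMbd2 falls, Mbd2, Lefty1 and Peg3 among them, thus follows in part from that choice. Nearest to Pter was Mbd2 (distance 0.642), to Pecam1 Peg3 (0.219), to Copz2 and Ffar3 Lefty1 (0.458 and 0.390), and to Myb and St6gal1 Gbas (0.192 and 0.259). The second nearest were Gbas for Pter and Pecam1, Ttll6 for Copz2, Prdm1 for Ffar3 and Myb and Peg3 for St6gal1. Gbas went from 56.1 ± 1.68 RPKM in CTR to 26.0 ± 1.60 with siMbd2 and 20.8 ± 0.0283 with miR-294 (SD, n = 2), lower in both like Myb. 4930447C04Rik had other neighbours in this measure, Gmfg (0.529) and Zfp512 (0.549). Gmfg measured 7.34 ± 0.0566 RPKM in CTR, 6.68 ± 0.361 with miR-294 and 3.63 ± 0.191 with siMbd2 (SD, n = 2), so it too was low in the siMbd2 libraries alone.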

How the data were processed

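Messenger RNA was measured by paired-end Illumina sequencing in 6 libraries. The authors' deposited table gives RPKM per gene and library, per the file headers, and 2 fold columns, the authors' ratio of treated to CTR RPKM, used only for comparison. The submitters' processing notes name CASAVA 1.7, STAR 2.3.0, Cufflinks and mm10, without roles, and per the labels each value averages the lanes of a sample. Groups follow the labels. No counts are given. Values were fitted as log2(RPKM + 1) for genes whose mean reached 1 RPKM, in 1 model with 3 groups, with limma 3.58.1 (R 4.3.3), an intensity trend, 3 residual and 5.38 prior degrees of freedom; tests are two-sided. An exact permutation test of 2 against 2 libraries cannot go below p = 0.333. Genes, promoters and 3' UTRs came from GENCODE vM21 (GRCm38) and RefSeq, read with pandas 2.3.3 and numpy 2.4.6 in Python 3.11.15; figures used matplotlib 3.10.9. The 7 genes, the gene lists and the tests were chosen with earlier results of these data known. Named are the 7 genes, Mbd2, the 2 nearest profiles of each, the 3 genes just outside, closest paralogs, neighbours and up to 4 called genes per list and comparison. The code of the fit was checked on values simulated from its own model, which cannot test the assumptions of that model. Alternatives were pseudocounts of 0.1 and 0.5, no filter or a mean of 5 RPKM, 2 other scalings, a replicate block, no trend, only the groups compared, and each library left out.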

Additional observations from a re-analysis of the deposited data

How the results depend on the processing

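Over the alternatives, the miR-294 against CTR changes of the 7 genes kept direction and call in 101 of 102 recomputed values, the exception being 4930447C04Rik without CTR replicate 1. Of the 102 values for miR-294 against siMbd2, 90 kept both, 6 lost the call (all with a library left out, for Copz2, Ffar3 and Myb), 1 gained it and 5 changed sign, each of these for a difference that was not called. The sign changes were Pecam1 with median-of-ratios scaling (0.0218) and quantile normalization (0.0637), St6gal1 with quantile normalization (0.0491), and values without a library, which ran from -0.1268 to 0.0152 for Pecam1 and from -0.0373 to 0.3145 for Pter. Copz1 with siMbd2 was -0.0137 under quantile normalization. That normalization moved the median of all genes in miR-294 against siMbd2 by 0.106 and the share of called genes that were higher from 38.1% to 51.5% (47.7% with median-of-ratios scaling; in miR-294 against CTR from 42.9% to 51.3%), and called 2 of the 7 genes higher in place of 1. With a minimum mean of 5 RPKM, 3 of the 7 were called lower with miR-294, since Copz2, Ffar3 and Myb then fell below the filter. With a library left out, an arm of 1 library is assumed to vary like the others. Genes called in siMbd2 against CTR then ran from 1405 (without siMbd2 replicate 2) to 5387 (without CTR replicate 1), against 3933, and neighbours called lower from 2 to 8. For other named genes, 458 of 458 recomputed miR-294 values and 438 of 487 siMbd2 values kept direction and call; 47 of the latter lost the call. Libraries share only a replicate number: deviations of replicate 1 correlated at 0.119, 0.132 and 0.0218 between groups. With a replicate block 4305, 7605 and 6815 genes were called in siMbd2 against CTR, miR-294 against CTR and miR-294 against siMbd2, 7 neighbours were called lower, and the counts of the 7 genes stayed at 6 lower and 1 higher. Depth is unknown for all values.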
